A study of Mus musculus with 4 samples.

Results

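The genes described here are 34 enzymes, regulators and transporters of cholesterol and fatty acid synthesis, taken by symbol from a list of the sterol pathway, fatty acid synthesis, its control by sterol regulatory element-binding proteins (SREBPs) and sterol export. All 34 were in the table of 17300 genes, and all 34 were among the 11864 genes expressed highly enough to be tested. RNA came from dendritic cells sorted from mouse spleen, in 2 KO libraries, titled EKO, and 2 WT libraries. Dendritic cells take up antigen and present it to T cells. The series title names Siglec-E, an inhibitory receptor for sialic acid, in antigen-presenting cell activation and transplant rejection. Read with that title, the contrast asks how cells without this receptor differ from WT cells. The labels name neither the deleted gene, the targeting allele, the strain, the sex, the age nor a treatment, and the word Allo in the table's column names is not explained in the sources used here.

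Cholesterol is built from acetyl-CoA through mevalonate, isoprenoids, squalene and lanosterol. SREBP2 mainly drives the genes of that pathway and SREBP1 those of fatty acid synthesis. SCAP escorts both precursors from the endoplasmic reticulum to the Golgi for cleavage when sterols are scarce, and INSIG proteins hold SCAP back when sterols are plentiful. Liver X receptors (LXRs), which sense oxysterols, switch on the exporters ABCA1 and ABCG1. In dendritic cells and macrophages this balance is known to shift with activation and with the uptake of dead cells.

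Values are the deposited log2 values after a variance-stabilizing transform. The lowest value in every library is 8.04, and values close to it are compressed, so for weakly expressed genes the fold in counts is larger than the log2 difference shows. Normalized counts recovered by undoing the transform are given beside the log2 values for some genes. They summed to between 29002408 and 30952251 per library after the authors' scaling, so the sums do not give the reads sequenced. The KO columns carry numbers that match no KO title, so the names KO A and KO B are used. Siglece, the gene of Siglec-E, was at 8.92 and 8.96 in KO A and KO B against 10.38 and 10.14 in WT 1 and WT 2 (adjusted p = 0.0138 in limma), lower in the libraries labelled KO. KO A also held little RNA of Y-linked genes, with Ddx3y at 64.5 normalized counts against 3102 to 3979 in the other libraries. Nothing in the labels says that libraries of a group came from separate animals, so p-values measure only the spread between these libraries. Whether the spread between the WT libraries is technical is not stated in the labels and was not tested. Summed normalized counts of red cell markers were 4939 in WT 1 and 19322 in WT 2, and of neutrophil markers 109840 and 43015. For NK cell markers they were close, at 9975 and 10353. The Y-linked gap shows that KO A and KO B were not repeats of the same RNA.

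Of the 34 members, 1 rose in KO, 0 fell and 33 did not pass an adjusted p of 0.05 in limma. That is 2.94% of the members, against 6.93% of all tested genes, 4.69% higher and 2.23% lower. The member that rose was Insig1, the sterol-sensing retention protein. The median difference over the members was -0.004 log2 units (KO minus WT), and over all tested genes it was -0.002. At an unadjusted p under 0.05 there were 3 members, Insig1, Nr1h3 and Fads2, against 24.7% of all tested genes. The groups did not overlap in 12 of 34 members (35.3%), 7 higher and 5 lower in KO, against 56.2% of all tested genes. For 27 of 34 members the 95% interval of the difference lay wholly within 0.5 log2 units of 0. The same held for 8994 of all 11864 tested genes, a similar share. These limits are on the deposited scale, so for weakly expressed members they allow a larger fold in counts. Standard errors ran from 0.0798 to 0.195.

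**Figure D1:**
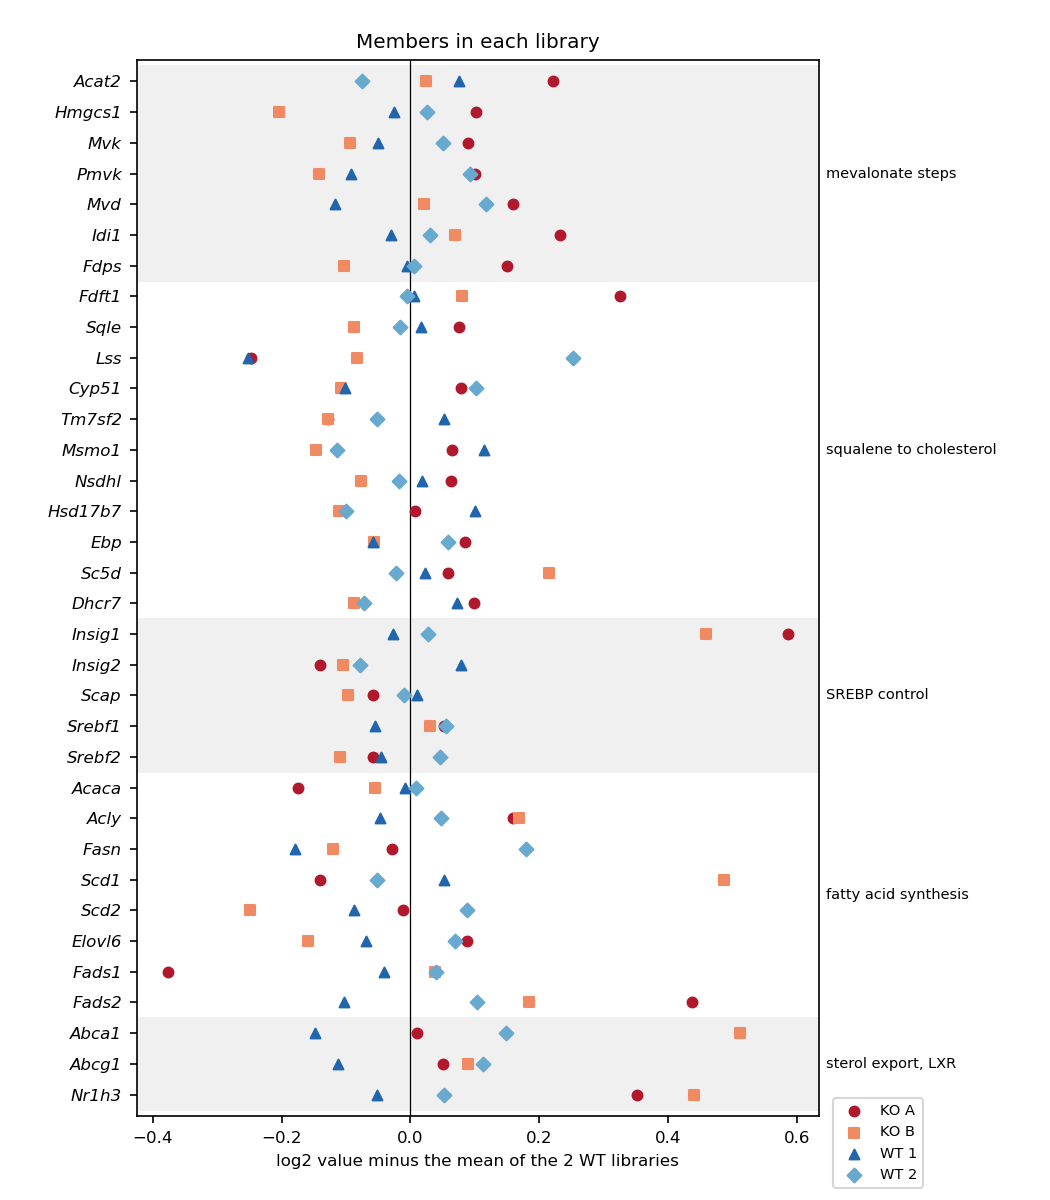
Each point is the log2 value of a member in 1 library minus the mean of the 2 WT libraries, with genes on the vertical axis grouped by role. Insig1 and Nr1h3 show both KO libraries to the right of both WT libraries, while in most enzymes of the mevalonate and sterol steps KO A lies to the right of KO B with the WT libraries between or beside them.

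**Figure D2:**
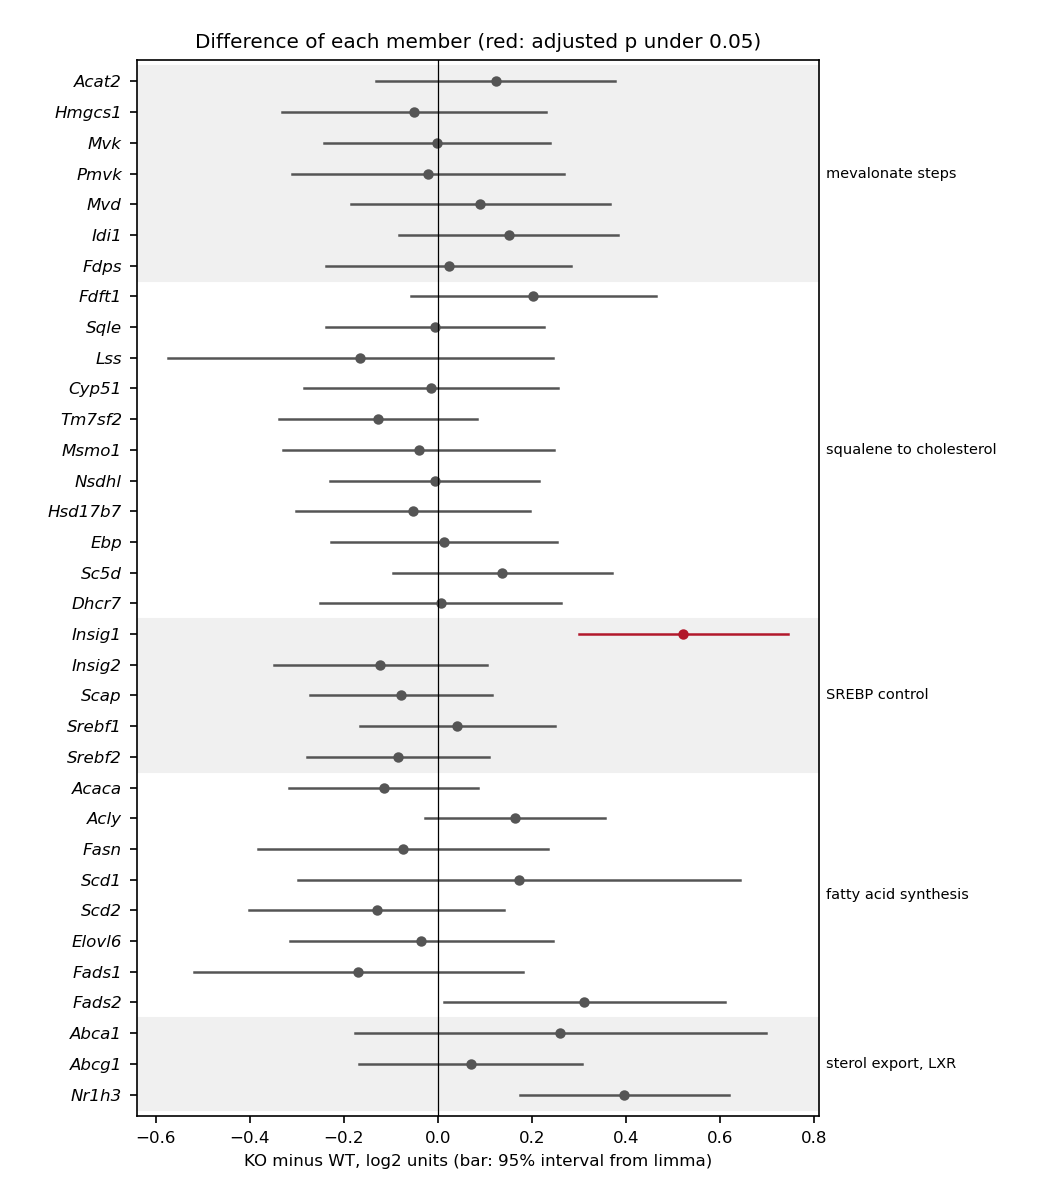
Points are the difference KO minus WT in log2 units for each member and bars are its 95% interval from limma over 2 libraries per group. Insig1, in red, is the member past the adjusted p of 0.05. In 27 of 34 members the interval stays within 0.5 of 0, as in 8994 of all 11864 tested genes.

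Insig1 (ENSMUSG00000045294) had log2 values of 10.91 and 10.78 (KO A, KO B) and of 10.30 and 10.35 (WT 1, WT 2). Both KO libraries were above both WT libraries, and the gap between groups was larger than the gap within either. The difference was 0.52 (SE 0.0925, 95% interval 0.30 to 0.74, adjusted p = 0.0311 in limma), from 789 and 836 normalized counts in WT to 1437 and 1277 in KO, a 1.67-fold ratio of means. The call depended on which library was left out: without KO A the difference was 0.46 (adjusted p = 0.106), without KO B 0.59 (adjusted p = 0.101) and without WT 1 0.49 (adjusted p = 0.0689), while without WT 2 it was 0.55 (adjusted p = 0.0399). Over all 11864 genes, 822 passed with every library, 0 in limma without KO A (2508 at an unadjusted p under 0.05), 3 without KO B, 646 without WT 1 and 820 without WT 2.

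The other regulators of SREBP processing did not pass. Insig2, the second retention protein, was at 9.47 and 9.51 in KO A and KO B and at 9.69 and 9.53 in WT 1 and WT 2. Its KO libraries were below both WT libraries by a margin smaller than the WT gap (difference -0.12, 95% interval -0.35 to 0.10). Scap, the escort protein, was at 11.27 and 11.23 in KO and 11.34 and 11.32 in WT (interval -0.27 to 0.12). Srebf2, the gene of SREBP2, was at 13.12 and 13.06 in KO and 13.13 and 13.22 in WT (interval -0.28 to 0.11). Srebf1, the gene of SREBP1, was at 11.15 and 11.12 in KO and 11.04 and 11.15 in WT (interval -0.17 to 0.25). The intervals of these 4 regulators all lay below the estimate for Insig1, although the difference between Insig1 and each of them was not tested.

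Promoter windows from RefSeq (build GRCm38.p6, 250 bases before to 50 after each start site) were matched by symbol for 27 of the 34 members, in 36 windows. A sterol regulatory element, the site SREBPs bind, was searched as TCACNCCA, and a CCAAT box, the site of the factor NF-Y that works beside SREBPs, as CCAAT, on both strands and with overlap allowed. The sterol element was found in 3 of 27 members (11.1%) and in 4.97% of all 27025 genes with a window. The members were Hmgcs1, Msmo1 and Srebf2. A CCAAT box was found in 20 of 27 members (74.1%) and in 41.1% of all genes, and in 14 of the 15 mevalonate and sterol enzymes that had a window. An exact form of the direct repeat bound by LXRs, AGGTCA repeated in the same orientation 4 bases apart, was in 0 of 27 members. It was in 4 of all 27025 genes, so rarely that its absence from the members says little, and Abcg1 had no window. A match describes letters in the window and not a bound site. Sites that differ from these strings or lie outside the windows were not searched, so a missing match does not show a missing site.

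The stretches with these matches are shown for the member that rose and for the 3 members holding the sterol element, so that their layout can be compared. Matches are in capitals, and a CCAAT box on the opposite strand reads ATTGG. Positions are counted back from the start site.
Insig1, bases -240 to -171, chr5:28071172-28071241, plus strand: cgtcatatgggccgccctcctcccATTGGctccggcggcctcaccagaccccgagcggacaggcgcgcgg
Srebf2, bases -180 to -111, chr15:82147089-82147158, plus strand: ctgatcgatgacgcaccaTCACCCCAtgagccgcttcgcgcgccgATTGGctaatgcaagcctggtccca
Hmgcs1, bases -190 to -111, chr13:119690161-119690240, plus strand: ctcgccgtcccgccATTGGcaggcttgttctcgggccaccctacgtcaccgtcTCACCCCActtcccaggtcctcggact
Msmo1, bases -190 to -121, chr8:64733699-64733768, minus strand: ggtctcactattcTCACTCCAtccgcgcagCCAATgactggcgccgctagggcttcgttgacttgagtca
In the last 3 stretches the sterol element and a CCAAT box stand within the same 80 bases or fewer. Only the CCAAT string was matched in the Insig1 stretch, and other forms of the sterol element were not searched. None of the 3 genes with both matches passed the test between KO and WT.

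**Figure D3:**
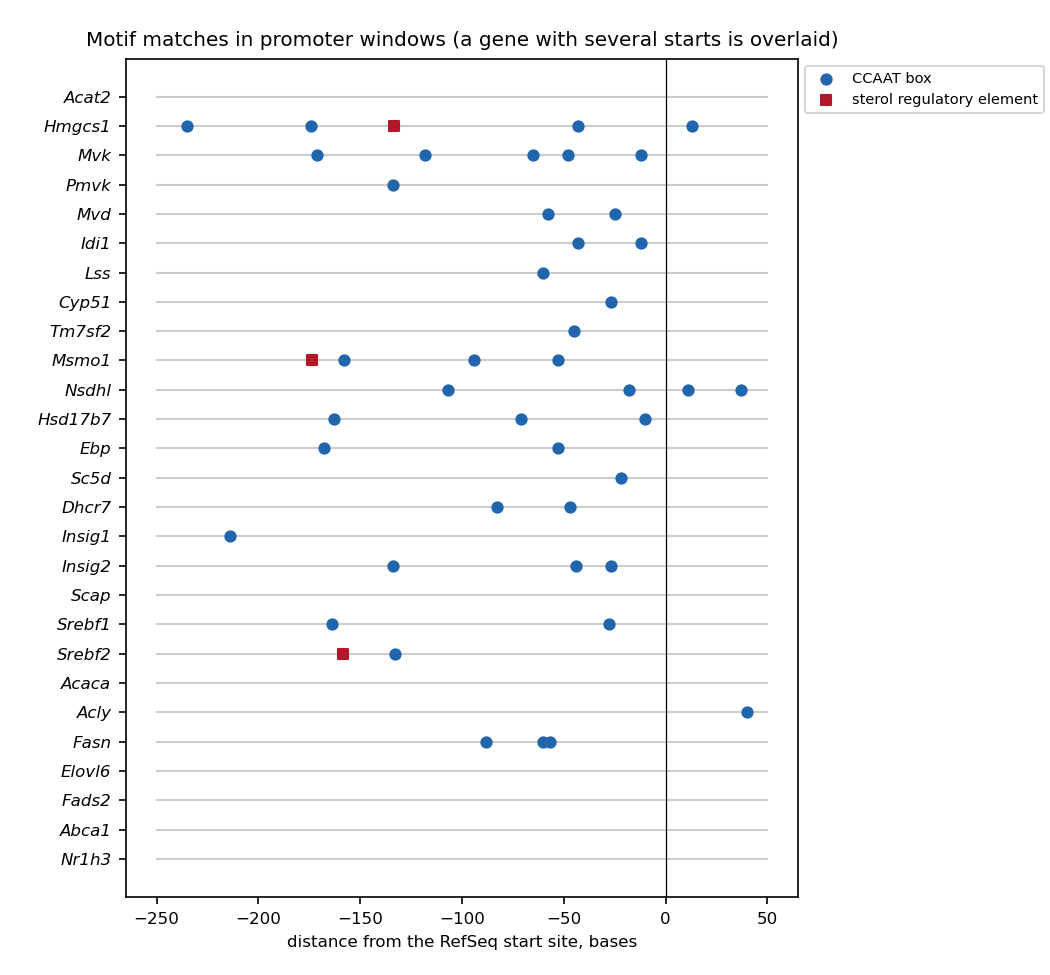
Each line is the promoter window of a member, with distance from the RefSeq start site in bases on the horizontal axis. Circles mark CCAAT boxes, found in 20 of 27 members, and squares mark the sterol element, found in Hmgcs1, Msmo1 and Srebf2.

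Of the 7 genes of the mevalonate steps 0 passed the threshold and 0 had an unadjusted p under 0.05 in limma. Over all tested genes these shares were 6.93% and 24.7%, so few or none would be looked for among 7. Each of the 7 intervals lay within 0.5 log2 units of 0 on the deposited scale, as did those of 8994 of all 11864 tested genes. That scale is compressed for weakly expressed genes. For Acat2 the difference was 0.30 on the log2 scale of the normalized count plus 1, against 0.12 on the deposited scale. Acat2, which joins acetyl-CoA units, was at 9.46 and 9.26 in KO A and KO B and at 9.31 and 9.16 in WT 1 and WT 2 (difference 0.12, 95% interval -0.13 to 0.38). Its close copy Acat3 was at 8.55 to 8.93, so reads of the pair could have been split between them. Hmgcs1, the synthase that makes HMG-CoA, was at 11.43 and 11.13 in KO and at 11.31 and 11.36 in WT. KO A was the highest and KO B the lowest library of that gene, and the groups overlapped (interval -0.33 to 0.23). Mvk, mevalonate kinase, ran from 9.29 to 9.47 over the 4 libraries (interval -0.24 to 0.24). Pmvk, the next kinase, ran from 10.06 to 10.30 (interval -0.31 to 0.27), and Mvd, the decarboxylase that follows it, from 9.88 to 10.15 (interval -0.18 to 0.36). Idi1, the isomerase of isopentenyl diphosphate, was the member of these 7 whose groups did not overlap, at 10.75 and 10.59 in KO and 10.49 and 10.55 in WT (difference 0.15, adjusted p = 0.394). Fdps, which makes farnesyl diphosphate, was at 10.92 and 10.67 in KO and 10.77 and 10.78 in WT (interval -0.24 to 0.28).

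From squalene to cholesterol, 0 of 11 genes passed (6.93% of all tested genes), with 0 at an unadjusted p under 0.05 in limma (24.7%). Their median difference was -0.01. Fdft1, squalene synthase and the first committed step, was at 10.69 and 10.45 in KO A and KO B and at 10.37 and 10.36 in WT 1 and WT 2. The KO values lay above the WT values, and the gap of 0.24 between the KO libraries was wider than the difference of 0.20 (95% interval -0.06 to 0.46, adjusted p = 0.308). Without KO A the difference was 0.08 and without KO B 0.32. Sqle, squalene epoxidase, was at 10.52 and 10.36 in KO and 10.46 and 10.43 in WT (interval -0.24 to 0.23). Lss, lanosterol synthase, had values of 10.24 and 10.41 in the KO libraries, 10.24 in WT 1 and 10.74 in WT 2. WT 2 stood apart from the other 3 libraries, which gave the widest interval among the enzymes (-0.57 to 0.24). Cyp51, the lanosterol demethylase, was at 10.93 and 10.75 in KO and 10.76 and 10.96 in WT, a crossing of the groups with an interval of -0.28 to 0.26.

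Among the later steps, Msmo1 and Nsdhl, which remove the methyl groups at carbon 4 with Hsd17b7, differed by -0.04 and -0.01 (intervals -0.33 to 0.25 and -0.23 to 0.21), and Hsd17b7 by -0.05 (interval -0.30 to 0.20). Ebp, the sterol isomerase, ran from 9.99 to 10.14 over the libraries, and Dhcr7, a late reductase, from 9.64 to 9.82, with overlapping groups in both. Tm7sf2, a sterol reductase, was at 9.42 in both KO libraries against 9.60 and 9.50 in WT (difference -0.13, adjusted p = 0.421). Sc5d, the desaturase of the late pathway, was at 10.24 and 10.40 in KO and 10.20 and 10.16 in WT (difference 0.14, adjusted p = 0.437). In Tm7sf2, Sc5d, Fdft1 and Idi1 the groups did not overlap, 4 of the 18 enzymes (22.2%), against 56.2% of all tested genes. Summed over the 18 enzymes, normalized counts were 15334 and 13007 in KO A and KO B and 13590 and 14321 in WT 1 and WT 2, a ratio of group means of 1.02.

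Fatty acid synthesis genes gave 0 of 8 past the threshold in limma (6.93% of all tested genes), with 1 at an unadjusted p under 0.05 (24.7%). The groups did not overlap in 3 (37.5%, against 56.2%). Acly, which makes cytosolic acetyl-CoA from citrate, was at 12.67 and 12.68 in KO A and KO B and 12.46 and 12.55 in WT 1 and WT 2. Its KO values were above both WT values by a small margin (difference 0.16, 95% interval -0.03 to 0.36, adjusted p = 0.264). Acaca, the carboxylase that makes malonyl-CoA, lay the other way, at 11.93 and 12.05 in KO and 12.09 and 12.11 in WT (interval -0.32 to 0.09). Fasn, fatty acid synthase, was at 3853 and 3585 normalized counts in KO, inside the WT range of 3422 to 4527 (log2 interval -0.38 to 0.23). Elovl6, the elongase of palmitate, ran from 9.92 in KO B to 10.17 in KO A, with WT between them.

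Some desaturases differed widely between the KO libraries. Scd1, which makes oleate, had 241 normalized counts in KO A and 564 in KO B, with 323 and 276 in WT. KO B alone was high, so the log2 interval was wide (-0.30 to 0.64). Scd3, a close copy named after its values were seen, was also highest in KO B, at 9.99 against 9.62 in KO A and 9.45 and 9.52 in WT, and reads of the copies could have been shared. Scd2 had the opposite order of the KO libraries, 12.04 in KO A and 11.81 in KO B, with WT at 11.97 and 12.14 (interval -0.40 to 0.14). Fads1, the delta-5 desaturase of polyunsaturated fatty acids, was at 9.63 in KO A and between 9.97 and 10.05 in the other libraries (interval -0.52 to 0.18). Fads2, the delta-6 desaturase, was at 10.09 and 9.83 in KO and 9.55 and 9.75 in WT. All its KO values exceeded the WT values, with 626 and 463 against 315 and 417 normalized counts (difference 0.31, 95% interval 0.01 to 0.61), but it did not pass (adjusted p = 0.187 in limma). The difference was 0.18 without KO A and 0.21 without WT 1.

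Of the 3 sterol export genes 0 passed in limma (6.93% of all tested genes), with 1 at an unadjusted p under 0.05 (24.7%). Nr1h3 (ENSMUSG00000002108), the gene of LXR alpha, was at 9.86 and 9.95 in KO A and KO B and 9.46 and 9.56 in WT 1 and WT 2. The groups were separated by more than either within-group gap, with 478 and 533 normalized counts in KO against 276 and 321 in WT, a 1.69-fold ratio of means. The difference was 0.40 (SE 0.0924, 95% interval 0.17 to 0.62) and did not pass the threshold (adjusted p = 0.0551 in limma). It was 0.44 without KO A, 0.35 without KO B, 0.34 without WT 1 and 0.45 without WT 2. Abca1, the exporter of cholesterol to lipid-poor apolipoprotein, had values of 10.57 and 11.07 (KO A, KO B) and of 10.41 and 10.70 in WT. Its high library was KO B, and KO A lay inside the WT range (difference 0.26, interval -0.18 to 0.70), and the difference was 0.01 without KO B and 0.51 without KO A. Abcg1, which exports cholesterol to mature lipoprotein particles, was at 12.43 and 12.47 in KO and 12.27 and 12.49 in WT (interval -0.17 to 0.31). Macrophages are rich in LXR alpha and ABCA1, and macrophage markers were higher in the same libraries. Of 11 tested 4 rose and 0 fell, against 4.69% and 2.23% of all tested genes. Their summed normalized counts were 14024 and 21265 (KO A, KO B) and 10151 and 8077 in WT. None of these markers was at the lowest value in any library, and their part in the values of Nr1h3 and Abca1 was not tested.

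**Figure D4:**
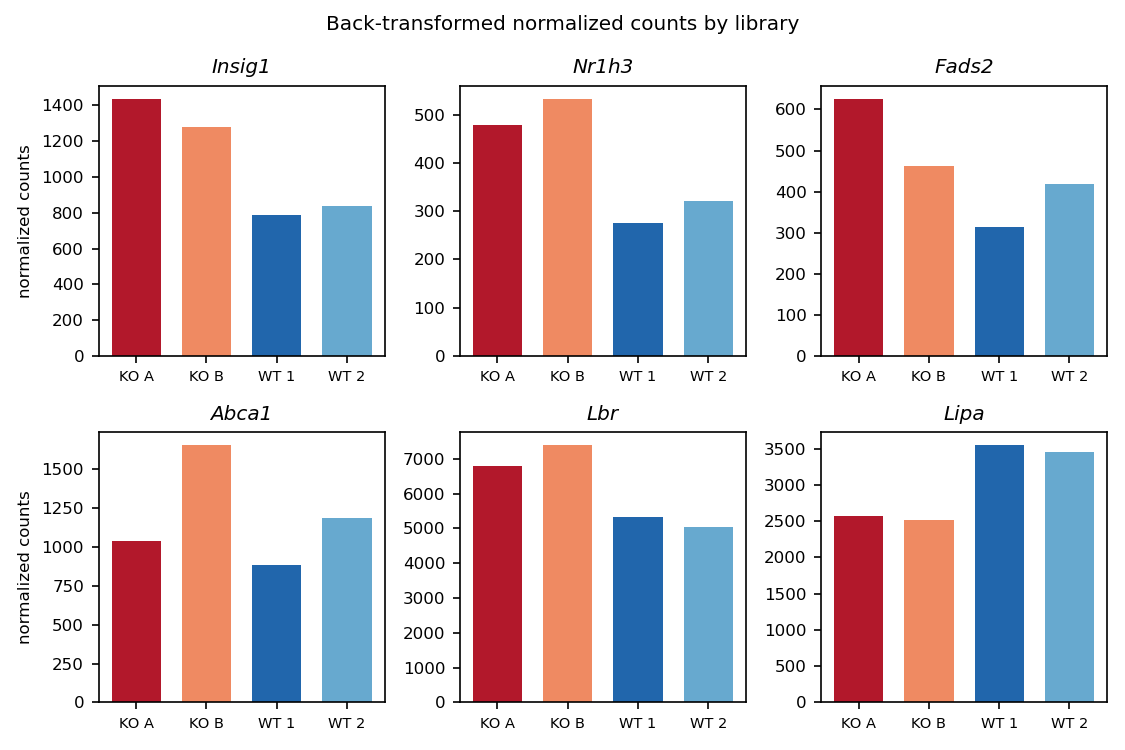
Bars are normalized counts in each library, recovered from the deposited values, for 6 genes on linear axes that start at 0. Insig1, Nr1h3, Fads2 and Lbr are higher in both KO libraries than in both WT libraries, Lipa is lower in both, and Abca1 is high in KO B.

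The mevalonate and sterol enzymes differed more between the 2 KO libraries than between KO and WT. KO A was above KO B in 15 of the 18 enzymes, against 50.4% of all tested genes, with a median gap of 0.17 log2 units against 0.00 over all tested genes. In 16 of 18 the gap between the KO libraries was larger than the difference between the groups, against 5188 of all 11864 tested genes. A gap between 2 single libraries varies more than a difference of group means by its construction. All 7 mevalonate genes had KO A above KO B, by 0.14 (Mvd) to 0.30 (Hmgcs1), and their summed counts were 6979 in KO A and 5547 in KO B, a ratio of 1.26. The exceptions to KO A above KO B were Lss, Sc5d and Tm7sf2. Between the WT libraries, WT 1 was above WT 2 in 9 of 18 enzymes, against 46.5% of all tested genes, with a median gap of 0.00 in which opposite signs cancel. Taken without sign, the median gap of the 18 enzymes was 0.17 between the KO libraries and 0.11 between the WT libraries. Both exceeded their median difference between the groups without sign, 0.046. Over all tested genes these 3 medians were 0.11, 0.093 and 0.13. By role, WT 1 was higher in 1 of 7 mevalonate genes and in 8 of 11 sterol genes. Fatty acid synthesis genes were split, with KO A above KO B in 4 of 8. These 18 genes belong to 1 pathway and were read in the same libraries, so they are not independent measurements, and a gap between 2 single libraries has no test here.

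The KO libraries also differed in other ways that run with this gap. Plasmacytoid dendritic cell markers were higher in KO A than in KO B in 8 of 8 genes, with a median gap of 0.74 and summed counts of 34912 against 18187. WT 1 and WT 2 summed to 18853 and 23795 for those markers, and none was at the lowest value in any library. Macrophage markers were lower in KO A than in KO B in 11 of 11 tested genes, red cell markers in 11 of 11, B cell markers in 8 of 8, NK cell markers in 9 of 10 and immediate early genes in 12 of 13. Monocyte markers were higher in KO A in 8 of 10, dendritic cell markers in 10 of 14, neutrophil markers in 6 of 10 and T cell markers in 3 of 5 tested, with T cell sums of 7398 in KO A and 5215 in KO B. The low Y-linked RNA of KO A is given above. The part of these differences in the gap of the sterol enzymes was not tested.

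**Figure D5:**
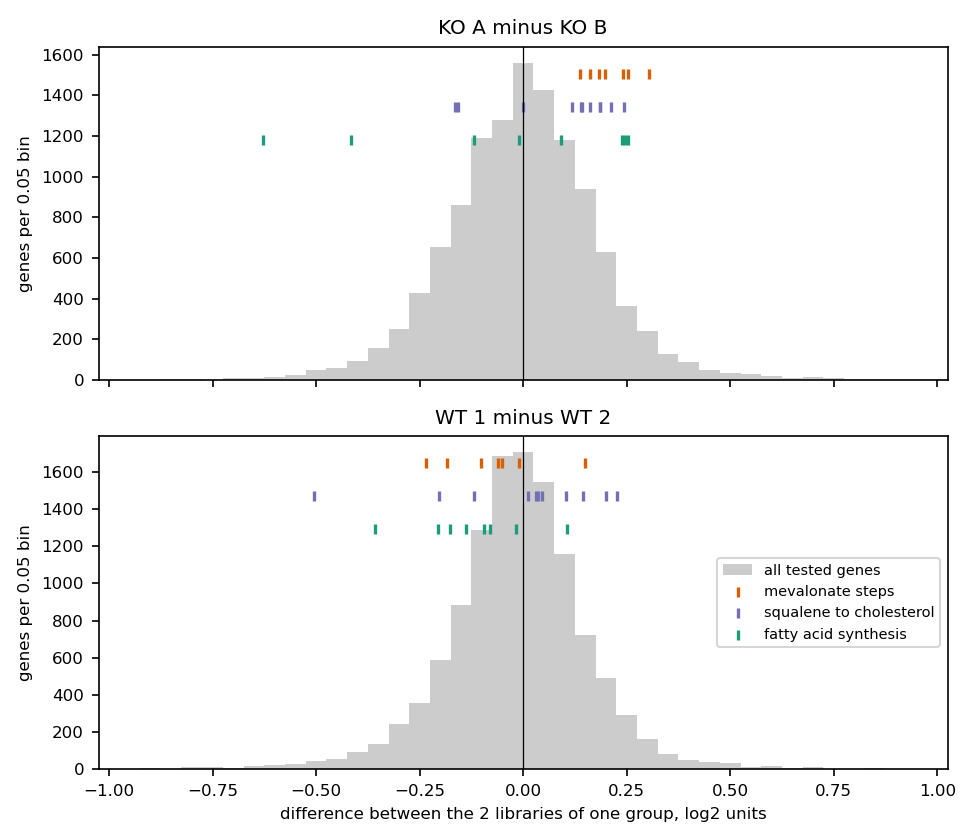
Grey bars count all tested genes by the log2 difference between the 2 libraries of a group, KO A minus KO B above and WT 1 minus WT 2 below, and coloured ticks are single members placed by role. Differences beyond 1 log2 unit are not drawn. All 7 mevalonate ticks lie to the right of 0 in KO, while the WT ticks of the 18 enzymes fall on both sides.

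Other genes of sterol handling were taken from a list of 32, of which 31 were in the table and 29 were tested. Of these 1 rose, 1 fell and 27 did not pass in limma, 6.90% against 6.93% of all tested genes. Lbr (ENSMUSG00000004880), the lamin B receptor of the nuclear envelope, which also has sterol reductase activity, was at 12.83 and 12.95 in KO A and KO B and 12.51 and 12.44 in WT 1 and WT 2. It rose by 0.42 log2 units (SE 0.0842, adjusted p = 0.0406 in limma), or 1.37 times in counts, with both KO libraries above both WT libraries. With quantile normalization its difference was 0.37 and the call ended (adjusted p = 0.0670). Lipa (ENSMUSG00000024781), the lysosomal lipase that frees cholesterol from cholesteryl esters, was at 11.59 and 11.56 in KO and 11.98 and 11.95 in WT. It fell by 0.40 (SE 0.0782, adjusted p = 0.0389), to 0.727 of the WT counts. Both calls ended when any 1 library was left out, with differences of 0.36 to 0.47 for Lbr (adjusted p = 0.0760 to 0.154) and of -0.41 to -0.38 for Lipa (adjusted p = 0.0890 to 0.141). From a list of 34 further genes of fatty acid elongation, activation, storage and oxidation, 32 were in the table and 28 were tested. Of these 0 passed in limma, against 6.93% of all tested genes, and 8 had an unadjusted p under 0.05, against 24.7%. The groups did not overlap in 64.3% of the 28, 12 higher and 6 lower in KO, against 56.2% of all tested genes.

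Markers of the sorted cells and of other spleen cells moved between the groups beside these values. Over all tested genes 4.69% rose, 2.23% fell and 24.7% had an unadjusted p under 0.05 in limma. Of 14 dendritic cell markers 9 fell and 0 rose, with summed counts of 402232 to 434761 in KO and 555985 to 573613 in WT. In bulk RNA, fewer cells of a type and less RNA per cell cannot be told apart. Immediate early genes, which respond within minutes to stimulation or handling, rose in 9 of 13, with sums of 124508 to 144834 in KO and 15505 to 46604 in WT. Markers of NK cells rose in 8 of 10 (19411 to 23758 in KO, 9975 to 10353 in WT), of monocytes in 5 of 10 (80759 to 82822 and 51207 to 54964), of neutrophils in 3 of 10 (133071 to 134506 and 43015 to 109840) and of red cells in 7 of 11 tested (46364 to 68175 and 4939 to 19322). T cell markers rose in 2 of 5 tested and B cell markers in 1 of 8, while plasmacytoid markers gave 0 of 8 in either direction and 0 at an unadjusted p under 0.05. None of the genes of these lists that were in the table was at its lowest value in any library. The summed counts of the 34 members were 54524 and 52164 in KO and 50134 and 54988 in WT, with overlapping groups. The part of these markers in the values of Insig1, Lbr and Lipa was not tested.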

How the data were processed

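RNA of 4 libraries, 2 KO and 2 WT, was made with a stranded total RNA kit, per the labels' protocols. The submitters' processing notes name Salmon 1.10.1, DESeq2 and the build GRCm39, with no role or order. Which annotation and which gene filter the authors applied is not given in the sources used here. A deposited table holds log2 values after a variance-stabilizing transform. Counts were recovered from each value v as (2 to the power v minus 2 to the power of the lowest value) squared, divided by 2 to the power v. Symbols came from GENCODE vM21 (17289 of 17300 identifiers matched). The 11864 genes whose mean exceeded the lowest value by 1 log2 unit or more were tested in limma 3.58.1 under R 4.3.3, with an intensity trend, two-sided, with Benjamini-Hochberg adjustment over all of them and 6.48 total degrees of freedom. A check of the fit on simulated data used planted differences larger than that of any member. It does not show how well differences of the members' size are found. Of these genes 822 passed, 557 higher and 265 lower. Quantile normalization gave 366 higher and 282 lower. The members, lists and tests were chosen with earlier results of these data known. All members are named. From the other pathway lists, genes past the threshold are named and the rest counted. Alternatives were another filter, another scaling, another log scale, no trend, and leaving out each library.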

Additional observations from a re-analysis of the deposited data

How the results depend on the processing

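The counts of genes and of members past the threshold, the members whose groups did not overlap and the median difference of the members stayed within 1.5 times, or within the spread between libraries, without the filter, with a filter of 2 log2 units, with quantile normalization, with median centring, on the log2 scale of the count plus 1 and without the trend. With the filter of 2 log2 units 23 of the 34 members were tested, without Nr1h3, Fads2 and Scd1 among others, and the groups did not overlap in 8. With 1 library left out, the genes past the threshold ranged from 0 to 820, the members past it from 0 to 1 and the members whose groups did not overlap from 20 to 26, a count that grows when fewer libraries must separate. The signs of 3 differences close to 0 turned with the scaling. With quantile normalization they were -0.0064 for Fdps, -0.0031 for Ebp and -0.0065 for Dhcr7, and with median centring -6.9e-05, -0.0099 and -0.017. Median centring moves every difference by the same amount. The median over all tested genes went from -0.0017 on the deposited scale to -0.025 with median centring and -0.030 with quantile normalization. Why the scalings differ was not tested. Leaving out 1 library turned further signs, none of them past the threshold. The ranges were -0.20 to 0.10 for Hmgcs1, -0.094 to 0.089 for Mvk, -0.14 to 0.10 for Pmvk, -0.027 to 0.21 for Mvd, -0.10 to 0.15 for Fdps, -0.087 to 0.076 for Sqle, -0.42 to 0.087 for Lss, -0.12 to 0.087 for Cyp51, -0.15 to 0.073 for Msmo1, -0.077 to 0.063 for Nsdhl, -0.15 to 0.047 for Hsd17b7, -0.057 to 0.084 for Ebp, -0.087 to 0.099 for Dhcr7, -0.014 to 0.097 for Srebf1, -0.25 to 0.10 for Fasn, -0.14 to 0.49 for Scd1, -0.16 to 0.088 for Elovl6, -0.38 to 0.039 for Fads1 and -0.043 to 0.18 for Abcg1. Other members that did not pass moved by over 1.5 times without a turn of sign: -0.17 to -0.056 for Acaca, 0.024 to 0.22 for Acat2, 0.069 to 0.23 for Idi1, -0.20 to -0.044 for Insig2, 0.058 to 0.22 for Sc5d, -0.25 to -0.011 for Scd2, -0.13 to -0.038 for Srebf2, -0.18 to -0.076 for Tm7sf2, 0.18 to 0.44 for Fads2, 0.081 to 0.32 for Fdft1 and 0.0093 to 0.51 for Abca1. In these fits the lone library of a group is assumed to vary like the other group. No paired analysis was possible because the KO columns carry numbers that match no KO title. With 2 libraries a group, the members' standard errors of 0.0798 to 0.195 log2 units limit what could be detected, and the depth of the libraries is unknown.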
